A study of Homo sapiens with 12 samples.

Results

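The 9 transcripts described here encode secreted interleukins, gp130 cytokines and CXC chemokines: IL1A, IL1B, IL6, IL11, IL24, LIF, CXCL1, CXCL2 and CXCL8. They were chosen with earlier results of these data known and taken by symbol from a table of 17197 gene symbols. All 9 were among the 13171 genes tested. The data are 12 RNA-seq libraries of AC16, a line that was derived by fusing adult human ventricular heart cells with transformed fibroblasts and that the labels call cardiomyocyte. Each of the 4 groups held 3 libraries, and the titles number the libraries 1 to 12 across the groups.

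The siNC group (libraries 1 to 3) received a negative control siRNA and no oxidant. The siEP300 group (4 to 6) received siRNA against EP300, a lysine acetyltransferase that acts as a transcriptional coactivator, and no oxidant. The siNC.H2O2 group (7 to 9) received the control siRNA and hydrogen peroxide, and the siEP300.H2O2 group (10 to 12) received the EP300 siRNA and hydrogen peroxide. All 4 groups were transfected with jetPRIME in medium without serum, so none of them was left without siRNA. The oxidant followed 12 h after transfection and lasted 1 h. Its dose is labelled 200 mM, a unit that could not be checked here. RNA was taken after 48 h, with no statement of the step from which that time was counted. Nothing in the labels ties the 3 libraries of any group to separate cultures, and the p-values therefore measure only the spread between these libraries, which may be technical.

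IL-1 cytokines signal through a receptor complex to NF-kB and MAP kinases, and are known as early alarm signals of injured tissue. IL6, IL11 and LIF act through receptor complexes that share the gp130 chain (IL6ST), with STAT3 as a main effector. CXCL1, CXCL2 and CXCL8 attract neutrophils through the receptors CXCR1 and CXCR2. In the heart, members of these families are studied in injury, fibroblast activation and remodelling.

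The knockdown was examined first, because a treatment field in the labels names MLF1 where the titles name EP300. EP300 was at 83.3 ± 16.1 CPM (counts scaled to library size; SD, n = 3) in siNC and 36.6 ± 0.307 in siEP300, and at 76.7 ± 15.3 against 27.8 ± 2.01 CPM with H2O2. Its log2 fold changes were -1.19 ± 0.14 (SE; edgeR quasi-likelihood test, adjusted p = 3.6e-06) and -1.46 ± 0.14 (5.9e-07). MLF1 fell by 0.22 and 0.29 on the log2 scale (edgeR adjusted p 0.0052 and 0.00069). CREBBP, the close paralog of EP300, rose by 0.48 and 0.50 on the log2 scale (edgeR adjusted p 0.00024 and 0.00019).

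Library totals ran from 16081437 to 19033679 estimated counts. Libraries of a group also differed along 1 axis, the first principal component of log2 CPM centred by group, which held 28.6% of the within-group variance. siNC 1 (17.6), siEP300.H2O2 10 (15.8) and siNC.H2O2 9 (12.1) lay at its positive end and siNC.H2O2 7 (-13.9), siNC 2 (-11.4) and siEP300.H2O2 11 (-10.1) at its negative end. With siNC 1 and siNC.H2O2 7, the farthest library at each end, left out, the interaction calls over all genes rose from 439 to 1977. That setting kept siEP300.H2O2 10 and reduced only the control siRNA groups. Of 15 listed cardiomyocyte markers 4 were tested. The sarcomere genes MYH6, MYH7, MYL2 and TNNT2 each had a group mean of at most 0.0873 CPM, while NPPB had group means of 36.5 to 52.8 CPM, GATA4 of 7.66 to 13.7 and DES of 1.19 to 5.35. The list summed to 59.5 to 61.6 CPM in siNC, 45.5 to 48.3 in siEP300, 63.2 to 79.4 in siNC.H2O2 and 46.8 to 54.6 in siEP300.H2O2. All 12 fibroblast markers were tested, and their summed level was 7633 to 8048 CPM in siEP300.H2O2 and 9068 to 9905 in the other libraries. Epithelial markers (6 of 8 tested) summed to 327 to 398 CPM without H2O2, 576 to 627 in siNC.H2O2 and 447 to 524 in siEP300.H2O2. Endothelial markers (6 of 9 tested) summed to 35.1 to 45.4 CPM with control siRNA and 16.4 to 22.2 with EP300 siRNA. Of 12 leukocyte markers only CD14 and CD68 were tested, and PTPRC (CD45) had group means of 0.147 to 0.558 CPM. The summed leukocyte list ran from 34.8 to 43.6 CPM in siNC, 42.5 to 47.0 in siEP300, 53.4 to 56.5 in siNC.H2O2 and 68.5 to 81.5 in siEP300.H2O2. CD68, a lysosomal glycoprotein that other cells also express, made up most of that sum, at 31.3 ± 3.51, 39.8 ± 1.80, 46.1 ± 0.652 and 72.0 ± 6.89 CPM in the same order. CD14, a monocyte receptor of lipopolysaccharide, was at 7.22 ± 0.714, 4.35 ± 0.370, 7.43 ± 0.950 and 3.40 ± 0.379 CPM, lower with EP300 siRNA. CD68, CD14 and these marker sums differed between the same groups as several of the 9 transcripts, and their part in those changes was not tested. In bulk RNA, fewer cells of a type and less RNA per cell cannot be told apart.

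On the GENCODE v29 annotation of GRCh38, the members lie on 6 chromosomes. IL1A (112773915 to 112784590) and IL1B (112829751 to 112836903) are neighbours on the minus strand of chromosome 2, with a gap of 45.16 kb. CXCL8 (73740506 to 73743716) and CXCL1 (73869393 to 73871242), on the plus strand, and CXCL2 (74097035 to 74099293), on the minus strand, span 358.8 kb of chromosome 4 together with CXCL3. The others are single: IL24 on chromosome 1 (206897443 to 206904139), IL6 on chromosome 7 (22725884 to 22732002), IL11 on chromosome 19 (55364389 to 55370463) and LIF on chromosome 22 (30240447 to 30246851).

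RefSeq promoter windows (GRCh38.p14) were matched for 8 of the 9 members. The 250 bases before each start were searched on both strands for GGNNNTTCC (an NF-kB type motif), TGANTCA (AP-1) and TTGCNNAA (C/EBP). Matches of different motifs did not overlap in the windows of these members. Over 35116 windows of all genes, 17.1%, 6.57% and 9.05% held each motif in that order. Over the 15636 windows of genes tested here, the shares were 19.4%, 4.59% and 6.53%. The last 150 bases before the start are shown 5' to 3' for members whose responses differed. CXCL1 and CXCL2 had nearly identical windows and unlike responses. IL1B and IL24 had the 2 largest H2O2 responses, and their windows held neither an NF-kB nor an AP-1 match. These members were picked with their responses known, and a link between motifs and responses was not tested. Capitals mark matches.
CXCL1: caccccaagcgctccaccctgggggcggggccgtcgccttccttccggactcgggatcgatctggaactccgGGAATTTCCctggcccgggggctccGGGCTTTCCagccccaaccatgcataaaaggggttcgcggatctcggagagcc
CXCL2: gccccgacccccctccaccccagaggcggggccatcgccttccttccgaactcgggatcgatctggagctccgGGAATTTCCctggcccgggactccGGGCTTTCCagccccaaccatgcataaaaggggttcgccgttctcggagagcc
CXCL8: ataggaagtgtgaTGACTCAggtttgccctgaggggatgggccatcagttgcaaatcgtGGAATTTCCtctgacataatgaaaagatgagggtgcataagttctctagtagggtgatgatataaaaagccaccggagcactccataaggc
IL6: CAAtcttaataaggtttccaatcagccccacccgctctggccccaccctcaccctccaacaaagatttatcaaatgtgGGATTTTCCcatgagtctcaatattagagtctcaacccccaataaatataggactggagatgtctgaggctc
IL11: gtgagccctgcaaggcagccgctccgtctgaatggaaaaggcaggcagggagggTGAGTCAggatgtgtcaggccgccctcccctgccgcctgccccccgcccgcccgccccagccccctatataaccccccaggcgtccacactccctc
IL1B: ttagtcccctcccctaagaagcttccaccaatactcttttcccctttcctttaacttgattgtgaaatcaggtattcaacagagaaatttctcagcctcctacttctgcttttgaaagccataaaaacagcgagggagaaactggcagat
IL24: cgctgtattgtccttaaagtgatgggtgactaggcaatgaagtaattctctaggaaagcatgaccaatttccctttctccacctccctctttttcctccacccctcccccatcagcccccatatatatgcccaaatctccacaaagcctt
The windows are chr4:73869243-73869392 (plus strand) for CXCL1, chr4:74099196-74099345 (minus) for CXCL2, chr4:73740419-73740568 (plus) for CXCL8, chr7:22727050-22727199 (plus) for IL6, chr19:55370464-55370613 (minus) for IL11, chr2:112836780-112836929 (minus) for IL1B and chr1:206897293-206897442 (plus) for IL24.

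CXCL1 and CXCL2 each held 2 NF-kB matches with the same letters, GGAATTTCC and GGGCTTTCC, and their windows were identical at 134 of 151 aligned positions (88.7%). CXCL8 held 1 NF-kB and 1 AP-1 match, a combination found in 1.03% of all windows and 0.972% of those of tested genes. IL6 held 1 NF-kB match and 1 C/EBP match, of which the last bases open the printed window. IL11 held 1 AP-1 match, and the windows of the 2 IL1A starts held 1 and 2 AP-1 matches, with the same site in both. IL1B and CXCL2 held 1 C/EBP match each, upstream of the printed stretch. A match describes letters and no binding, and a window without one says only that these letters are not in it.

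The levels by library are shown first in the plot of all 9 transcripts.

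**Figure D1:**
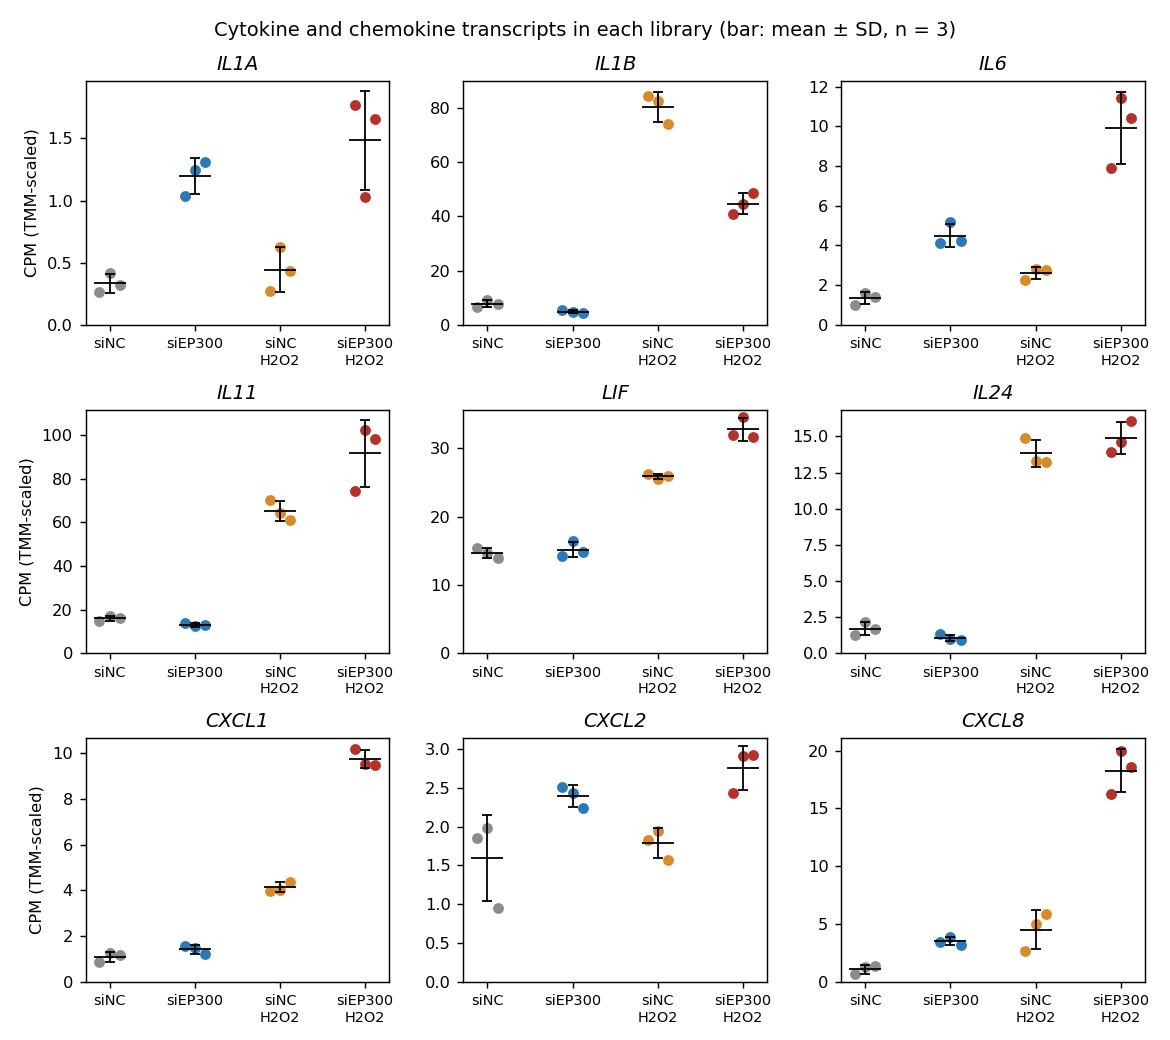
Level of each transcript in each library (points, CPM scaled with TMM factors, linear axes from 0) with the mean and SD of 3 libraries per group. IL1B rises with H2O2 and is lower with EP300 siRNA in both settings, IL1A, IL6 and CXCL8 are higher with EP300 siRNA in both settings, and CXCL1 reaches 9.48 to 10.2 CPM in siEP300.H2O2 against at most 4.39 elsewhere.

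With control siRNA, H2O2 raised 7 of the 9 transcripts and lowered none, against a background of 17.8% of all genes tested called higher and 17.4% called lower (edgeR, adjusted p under 0.05). Of these, 5 rose at least 2-fold, where 2.1% of all genes did. The median log2 fold change over the 9 was 1.92, beside -0.01 over all genes. With EP300 siRNA the oxidant also raised 7 (background 15.9%) and lowered none (15.1%), all 7 by at least 2-fold (1.36%), with a median of 2.37. The same 7 transcripts were called higher under both siRNAs, namely IL1B, IL6, IL11, IL24, LIF, CXCL1 and CXCL8. IL1A and CXCL2 were called in neither. Since the 9 were chosen with earlier results of these data known, these shares and medians describe them and test nothing.

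EP300 siRNA without H2O2 gave 4 of 9 higher (background 30.1%), 2 lower (31.4%) and 3 that did not pass, a share near the 61.5% of all genes called in either direction. With H2O2 the siRNA gave 7 higher (28.4%), 1 lower (30.6%) and 1 that did not pass, where 59% of all genes were called. Rises of at least 2-fold numbered 3 without H2O2 (background 2.93%) and 4 with it (2.62%). Median log2 fold changes were 0.38 and 0.63, beside 0.00 and -0.02 over all genes. IL1A passed the filter on low counts through the EP300 siRNA libraries, where it was high, so its calls there support nothing. Without it the siRNA counts are 3 and 6 of 8 higher, 2 and 3 of them by at least 2-fold, and the medians are 0.21 and 0.56. These comparisons share libraries with those of H2O2 and are given side by side only.

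**Figure D2:**
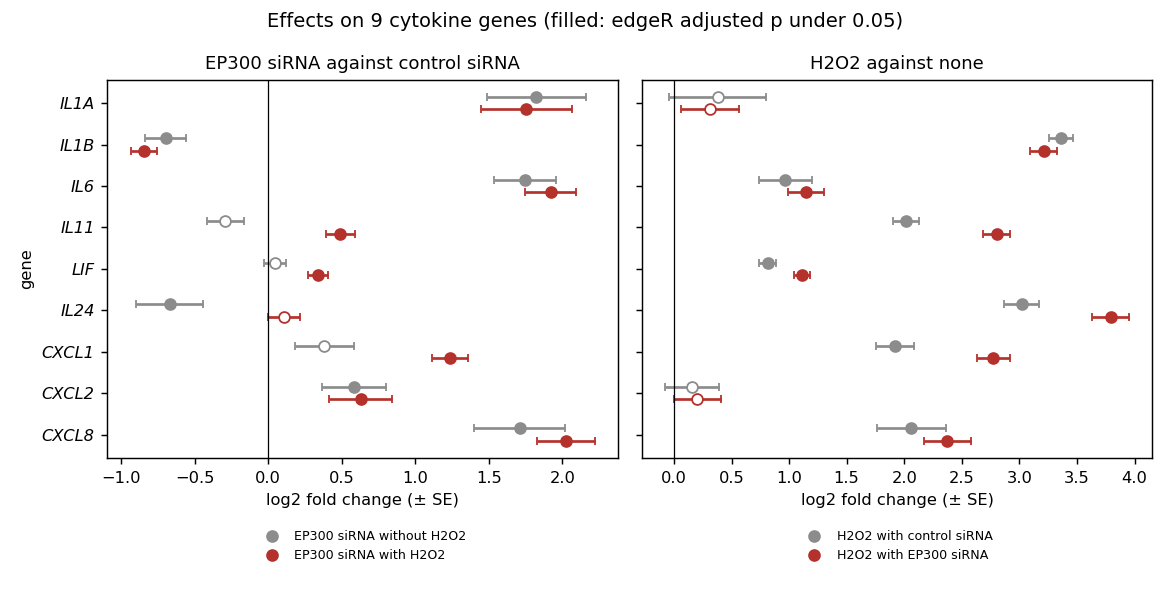
Log2 fold changes (± SE, 12 libraries in 1 fit) of the 9 transcripts for EP300 siRNA against control siRNA (left) and H2O2 against none (right). Filled points passed an edgeR adjusted p of 0.05: IL1B is the transcript with both siRNA effects below 0, and IL1A and CXCL2 are open in the H2O2 panel.

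IL1B, the secreted IL-1 that needs cleavage to become active, gave the largest rise with control siRNA and fell with EP300 siRNA. It stood at 6.70, 9.11 and 7.63 CPM in siNC, 5.41, 4.82 and 4.25 in siEP300, 84.5, 82.7 and 74.3 in siNC.H2O2 and 40.9, 44.5 and 48.8 in siEP300.H2O2. No 2 groups overlapped: H2O2 libraries were high under either siRNA, and EP300 siRNA libraries were the lower ones in both settings. H2O2 raised it 10.3-fold with control siRNA (log2 3.36 ± 0.11 SE, edgeR adjusted p = 1.7e-11), rank 8 of 13171 genes by log2 fold change. With EP300 siRNA the rise was 9.26-fold (3.21 ± 0.12, edgeR adjusted p = 1.4e-10), rank 5. EP300 siRNA changed it by -0.70 ± 0.14 without H2O2 (0.00052) and -0.85 ± 0.09 with it (edgeR adjusted p = 1.2e-06). The siRNA effects with and without H2O2 differed by -0.15 ± 0.17 (interaction, edgeR adjusted p = 0.73).

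IL1A, the IL-1 that is active as its precursor and is often retained in cells, differed in pattern from IL1B, the neighbouring gene. Its estimated counts were 5, 8 and 6 in siNC, 19, 22 and 24 in siEP300, 5, 10 and 8 in siNC.H2O2 and 32, 18 and 30 in siEP300.H2O2. All 6 EP300 siRNA libraries lay above all 6 control siRNA libraries, and the H2O2 groups overlapped their counterparts. In CPM the group means were 0.333 ± 0.0774, 1.20 ± 0.142, 0.444 ± 0.180 and 1.48 ± 0.397. EP300 siRNA raised it by 1.82 ± 0.34 on the log2 scale without H2O2 (edgeR adjusted p = 0.00027) and by 1.76 ± 0.31 with it (0.00020). H2O2 differences of 0.38 ± 0.42 and 0.31 ± 0.25 did not pass (edgeR adjusted p 0.53 and 0.37). At so few counts the size depends on the scale: on log2(FPKM + 1), which understates low genes, limma gave 0.50 and 0.55 for the siRNA. Since IL1A was tested only because these libraries are high, the p-values of either scale support nothing.

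The ratio of IL1A to IL1B, in FPKM (fragments scaled by transcript length and library size), shows this contrast within libraries, though the pair was chosen after the values were seen and has no test. It was 0.0274 to 0.0320 in siNC, 0.134 to 0.215 in siEP300, 0.00220 to 0.00540 in siNC.H2O2 and 0.0164 to 0.0302 in siEP300.H2O2. IL1A stayed the less abundant of the pair in each library. Between IL6 and IL1B the order did change: the ratio was 0.187 to 0.231 in siNC, 1.02 to 1.44 in siEP300, 0.0375 to 0.0505 in siNC.H2O2 and 0.256 to 0.362 in siEP300.H2O2.

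IL6, a gp130 cytokine of acute inflammation, rose with either treatment. It was at 1.00, 1.61 and 1.38 CPM in siNC, 4.10, 5.16 and 4.20 in siEP300, 2.26, 2.83 and 2.76 in siNC.H2O2 and 7.89, 11.4 and 10.4 in siEP300.H2O2. The 4 groups did not overlap, and the EP300 siRNA groups held the 6 highest libraries. EP300 siRNA raised it 3.35-fold without H2O2 (log2 1.74 ± 0.21, edgeR adjusted p = 4.9e-06) and 3.79-fold with it (1.92 ± 0.17, 2.4e-07). H2O2 raised it 1.95-fold with control siRNA (0.97 ± 0.23, edgeR adjusted p = 0.0047) and 2.21-fold with EP300 siRNA (1.14 ± 0.16, 7.9e-05). The interaction was 0.18 ± 0.29 (edgeR adjusted p = 0.83). On log2(FPKM + 1), limma gave 1.26 in place of 1.74 and 0.68 in place of 0.97, both past the threshold (adjusted p 6.8e-06 and 0.0025).

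IL11, a gp130 cytokine studied in cardiac fibroblasts and fibrosis, was the only one of the 9 whose interaction passed the threshold. The interactions of CXCL1 (0.85) and IL24 (0.77) were of like size and missed it. Its libraries read 14.9, 17.2 and 16.1 CPM in siNC, 14.1, 12.4 and 12.9 in siEP300, 70.3, 64.4 and 60.9 in siNC.H2O2 and 74.2, 102 and 98.3 in siEP300.H2O2. EP300 siRNA libraries were the lower ones without the oxidant and the higher ones with it, with no overlap in either setting. H2O2 raised IL11 4.05-fold with control siRNA (log2 2.02 ± 0.11, edgeR adjusted p = 5.6e-09) and 6.98-fold with EP300 siRNA (2.80 ± 0.12, 3.3e-10). The siRNA difference was -0.29 ± 0.13 without H2O2 and did not pass (edgeR adjusted p = 0.056), and 0.49 ± 0.10 with it (0.00067). Their difference, the interaction, was 0.78 ± 0.16 (edgeR adjusted p = 0.015), where 1.12% of all genes were called higher and 2.21% lower. It missed the threshold without siEP300 5 (0.75, edgeR adjusted p = 0.053) and without siEP300 6 (0.77, 0.0502), and was 0.92 (0.0014) without siEP300.H2O2 10, the lowest IL11 library of its group. The -0.29 passed under 9 of 20 alternative settings, with adjusted p-values from 0.0093 to 0.17 over all 20.

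LIF, a gp130 cytokine known for its action on stem cells and on heart muscle, had the smallest called changes with H2O2. It read 15.5, 14.6 and 14.0 CPM in siNC, 14.3, 16.4 and 14.8 in siEP300, 26.2, 25.5 and 25.9 in siNC.H2O2 and 32.0, 34.6 and 31.7 in siEP300.H2O2. The groups without H2O2 overlapped, the H2O2 groups lay above them, and those with EP300 siRNA were highest. H2O2 raised it 1.76-fold with control siRNA (0.82 ± 0.07, edgeR adjusted p = 8.5e-07) and 2.16-fold with EP300 siRNA (1.11 ± 0.07, 4.3e-08). EP300 siRNA gave 0.04 ± 0.08 without H2O2 (edgeR adjusted p = 0.63) and 0.34 ± 0.07 with it (0.00064). The interaction of 0.30 ± 0.10 did not pass (edgeR adjusted p = 0.15).

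IL24, an IL-10 family cytokine that signals through IL20RB complexes, rose strongly with H2O2 under both siRNAs. Its libraries held 1.27, 2.14 and 1.70 CPM in siNC, 1.31, 0.963 and 0.927 in siEP300, 14.9, 13.3 and 13.2 in siNC.H2O2 and 13.9, 14.6 and 16.1 in siEP300.H2O2. H2O2 libraries were far above the others, while the siRNA groups overlapped within each setting. The rise was 8.10-fold with control siRNA (log2 3.02 ± 0.15, edgeR adjusted p = 1.3e-09), rank 10 of 13171, and 13.9-fold with EP300 siRNA (3.79 ± 0.16, 3.7e-10), rank 3. On log2(FPKM + 1), limma gave 2.22 and 2.64, both past the threshold (adjusted p 8.5e-09 and 2.0e-09), and there IL1B had the larger rise with EP300 siRNA (2.90). EP300 siRNA gave -0.67 ± 0.23 without H2O2 (edgeR adjusted p = 0.019) and 0.11 ± 0.11 with it (0.43). That fall was lost without siNC 2 (-0.47, adjusted p = 0.12), siEP300 5 (-0.60, 0.063) or siEP300 6 (-0.57, 0.072). The interaction was 0.77 ± 0.25 and did not pass (edgeR adjusted p = 0.12), though it did without siNC 1 (0.94, 0.039). Unlike those of the other 8 members, its deposited counts were not whole numbers in most libraries (23.62 and 40.55 in siNC 1 and 2).

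CXCL8 (interleukin 8), a strong neutrophil attractant, was raised by each treatment. It read 0.633, 1.25 and 1.33 CPM in siNC, 3.44, 3.91 and 3.22 in siEP300, 2.64, 5.03 and 5.85 in siNC.H2O2 and 16.3, 19.9 and 18.6 in siEP300.H2O2. The group given both treatments was highest by a wide gap, and the groups given a single one overlapped each other. H2O2 raised it 4.17-fold with control siRNA (log2 2.06 ± 0.30, edgeR adjusted p = 9.0e-05) and 5.18-fold with EP300 siRNA (2.37 ± 0.20, 8.3e-07). EP300 siRNA raised it 3.27-fold without H2O2 (1.71 ± 0.31, edgeR adjusted p = 0.00022) and 4.06-fold with it (2.02 ± 0.20, 5.8e-07). The interaction was 0.31 ± 0.39 (edgeR adjusted p = 0.77). On log2(FPKM + 1), limma gave 0.96 in place of 1.71 and 1.20 in place of 2.06, both past the threshold (adjusted p 0.00047 and 0.00022).

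CXCL1, a neutrophil attractant first known as a growth factor of melanoma cells, rose with H2O2 and, in its presence, with EP300 siRNA. Its libraries read 0.845, 1.25 and 1.17 CPM in siNC, 1.58, 1.47 and 1.20 in siEP300, 3.99, 4.02 and 4.39 in siNC.H2O2 and 10.2, 9.55 and 9.48 in siEP300.H2O2. The siRNA groups overlapped without the oxidant and were apart with it. H2O2 raised it 3.79-fold with control siRNA (log2 1.92 ± 0.17, edgeR adjusted p = 5.2e-07) and 6.85-fold with EP300 siRNA (2.78 ± 0.14, 3.2e-09). On log2(FPKM + 1), limma gave 1.31 and 2.19 (adjusted p 2.4e-07 and 3.0e-09). EP300 siRNA gave 0.38 ± 0.20 without H2O2 (edgeR adjusted p = 0.16) and 1.24 ± 0.12 with it (5.3e-07). The interaction of 0.85 ± 0.24 missed the threshold (edgeR adjusted p = 0.063), and over 19 alternative settings its adjusted p ran from 0.0032 to 0.22. It passed with limma on each of 3 FPKM scales, without siNC 1 and without siNC 1 and siNC.H2O2 7 together.

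CXCL2, a neutrophil attractant whose promoter window nearly matches that of CXCL1, was not called with H2O2. It stood at 1.85, 1.98 and 0.954 CPM in siNC, 2.51, 2.44 and 2.23 in siEP300, 1.83, 1.95 and 1.57 in siNC.H2O2 and 2.43, 2.92 and 2.92 in siEP300.H2O2. EP300 siRNA libraries were the higher ones in both settings without overlap, while H2O2 groups overlapped their counterparts. EP300 siRNA raised it by 0.58 ± 0.22 without H2O2 (edgeR adjusted p = 0.032) and by 0.63 ± 0.21 with it (0.020). H2O2 differences were 0.16 ± 0.23 and 0.20 ± 0.20 (edgeR adjusted p 0.64 and 0.48). Both siRNA calls depended on single libraries: without siNC 3, the lowest library, the first was 0.32 (adjusted p = 0.18), and the first missed the threshold under 4 settings in all and the second under 3.

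In FPKM, CXCL1 stood at 0.427, 0.590 and 1.14 of CXCL2 in siNC, 0.588, 0.563 and 0.500 in siEP300, 2.03, 1.92 and 2.61 in siNC.H2O2 and 3.91, 3.05 and 3.03 in siEP300.H2O2. CXCL1 was the more abundant of the pair in all 6 H2O2 libraries, and the difference was not tested because the pair was chosen with the values known. CXCL3, a further close copy and no member, held 3 to 5 counts per library in siNC, 3 to 6 in siEP300, 8 to 14 in siNC.H2O2 and 9 to 13 in siEP300.H2O2. It passed the filter on low counts through the H2O2 libraries, so its test there supports nothing and is not given. These paralogs are alike in sequence, so reads of one may have been counted for another by a rule that is not given in the sources used here.

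**Figure D3:**
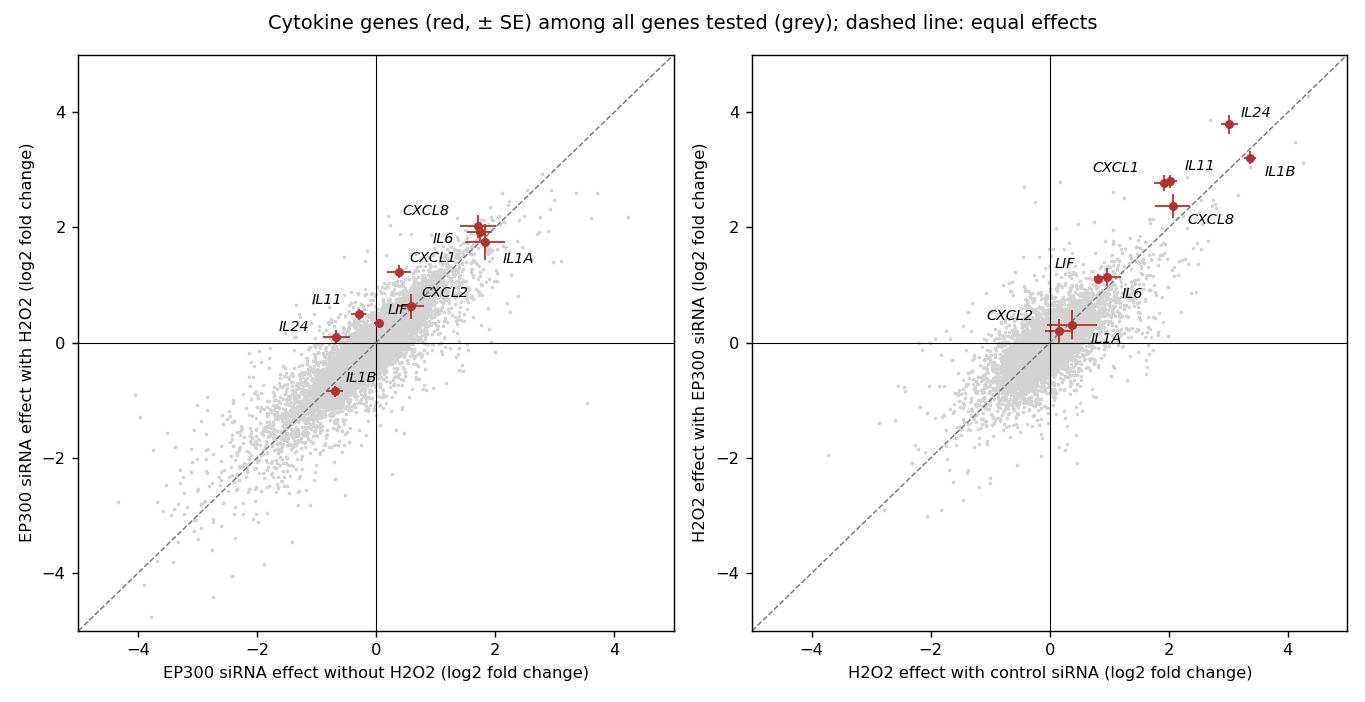
Effects of EP300 siRNA without (x) and with H2O2 (y), left, and of H2O2 with control (x) and with EP300 siRNA (y), right, as log2 fold changes of the 9 transcripts (red, ± SE) and all 13171 genes tested (grey); 8 and 6 genes lie outside the axes. IL11, CXCL1 and IL24 lie above the dashed line of equal effects in both panels, by 0.78, 0.85 and 0.77, of which the IL11 distance passed its test, LIF and CXCL8 lie above it by 0.30 and 0.31, and IL1B and IL24 are among the highest genes on the right.

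Across the 9 transcripts, the order of levels depended on the group. Per length, IL11 led in siNC at 8.07 ± 0.515 FPKM and overlapped IL1B at 6.75 ± 1.00, LIF followed at 4.33 ± 0.176, and IL1A was lowest at 0.200 ± 0.0458. CXCL2, IL6, CXCL1, IL24 and CXCL8, from 2.04 to 0.830 FPKM, each overlapped the next. In siEP300, IL11 led at 6.33 ± 0.406, and IL6 rose to the second place at 4.85 ± 0.866, overlapping LIF.

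With the oxidant, IL1B led in siNC.H2O2 at 65.9 ± 4.25 FPKM, above IL11 at 31.0 ± 2.01 and IL24 at 9.09 ± 0.505, none of which overlapped. In siEP300.H2O2, IL11 at 43.2 ± 6.79 and IL1B at 36.3 ± 2.69 overlapped, and CXCL8 came next at 13.1 ± 1.20. CXCL1, IL6, IL24 and LIF followed from 10.96 to 8.98 FPKM, each overlapping the next. IL1A had the lowest mean in all 4 groups, overlapping IL24 in siEP300.

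Summed over the 9, levels were 26.1 ± 2.81, 28.0 ± 1.70, 126 ± 5.32 and 137 ± 12.1 FPKM in siNC, siEP300, siNC.H2O2 and siEP300.H2O2. The siRNA groups overlapped in this sum in both settings, while its make-up differed. IL1B held 25.8% ± 1.18 of it in siNC and 14.3% ± 1.10 in siEP300, and 52.1% ± 1.19 against 26.5% ± 1.5 with the oxidant. IL6, CXCL1 and CXCL8 together held 13.6% ± 2.32, 32.2% ± 2.77, 8.66% ± 1.71 and 25.5% ± 1.07 in the same order. These shares were formed after the values were seen and have no test.

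**Figure D4:**
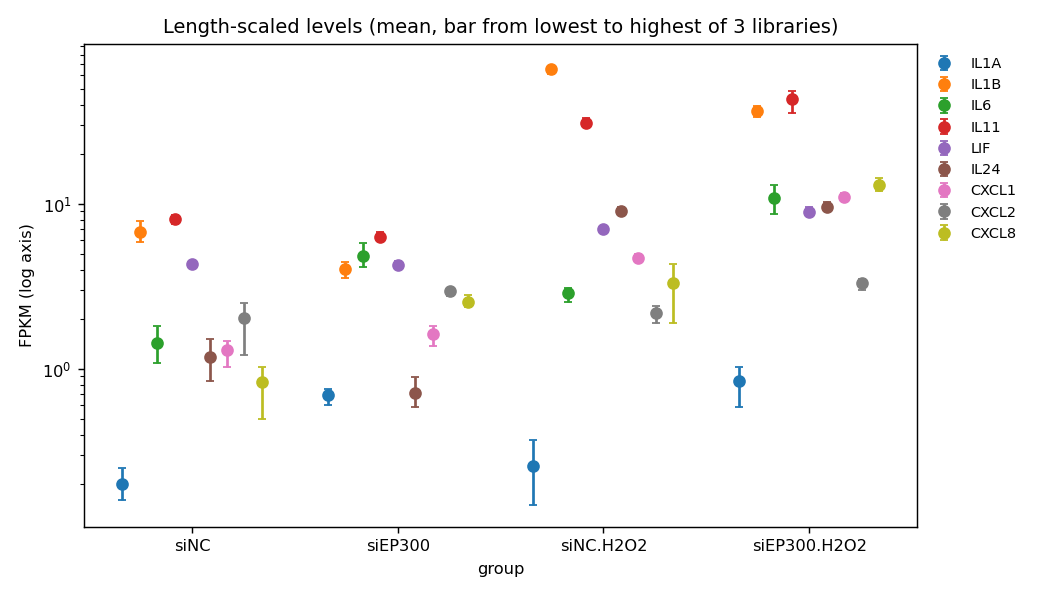
Length-scaled level (FPKM, log axis) of the 9 transcripts in each group, as the mean with a bar from the lowest to the highest of 3 libraries. IL1A has the lowest mean in each group, and IL1B (65.9 FPKM) is above IL11 (31.0) in siNC.H2O2 but not in siEP300.H2O2 (36.3 against 43.2).

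The transcripts whose profile over the 12 libraries lay nearest to each member were found by the root mean square difference of centred log2 CPM among 10742 genes of at least 5 CPM. For IL11 they were FOSL1, an AP-1 subunit (0.25), G0S2 and CCND1, where the median gene lay 1.24 away. G0S2, FOSL1 and GDF15 were nearest to both IL1B (0.62 to 0.74) and IL24 (0.56 to 0.63). IL6 lay nearest to KISS1, TFPI2 and CCN2 (0.24 to 0.25), LIF to ICAM1, TSC22D1 and ZMAT3 (0.11 to 0.12), and CXCL1 to ANKRD1, ACTA2 and DUSP5 (0.32 to 0.40). IGFBP5 (0.53) and SERPINB2 (0.55) lay near CXCL8, and CXCL2 lay nearest to GTPBP10, ZCWPW1 and ZNF124 (0.18 to 0.21). The median gene lay 1.70 from IL1B and IL24, 1.47 from CXCL8, 1.24 from CXCL1, 1.05 from IL6, 0.54 from LIF and 0.43 from CXCL2. Distances of different members are therefore not on the same footing. Within the 9, IL1B and IL24 were closest (0.35), then IL11 and CXCL1 (0.40), and the neighbours IL1A and IL1B were farthest apart (1.92). IL1A, at a mean of 0.864 CPM, was below the 1 CPM required of a member for nearest profiles. It passed the filter through libraries where it was high, so its distance supports nothing.

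The other genes of these pathways are described by lists, whose counts are read against the shares of all genes called higher and lower: 30.1% and 31.4% for EP300 siRNA without H2O2, 28.4% and 30.6% with it, 17.8% and 17.4% for H2O2 with control siRNA, and 15.9% and 15.1% with EP300 siRNA. The lists have no test of their own, and calls of genes that passed the filter only through the group where they were high support nothing.

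Of 43 other secreted cytokines and chemokines listed, 22 were tested, and H2O2 raised 9 and lowered 4 with control siRNA, and raised 6 and lowered 2 with EP300 siRNA, with medians of 0.40 and 0.17. Both counts of raised genes include CXCL3, which passed the filter through the H2O2 libraries, so its calls there support nothing. EP300 siRNA raised 3 and lowered 7 without H2O2, and raised 2 and lowered 7 with it. The lowered share was near that of all genes (31.4% and 30.6%). IL34 held 64 to 71 counts per library in siNC and 6 to 7 in siEP300. IL17D held 20 to 32 and 4 to 7, and CCL26 held 16 to 18 and 3 to 13. These 3 passed the filter wholly or mainly through control siRNA libraries, where they were high, so any siRNA calls of theirs support nothing. CXCL12, a chemokine of CXCR4, fell with EP300 siRNA from 220.1 ± 19.5 to 69.3 ± 3.16 CPM (log2 -1.67 ± 0.07, edgeR adjusted p = 9.9e-11) and by 2.10 with H2O2 (3.1e-11). CCL2, a monocyte attractant, rose with H2O2 by 1.52 ± 0.11 and 1.86 ± 0.11 (edgeR adjusted p 1.3e-07 and 2.5e-08). CLCF1, a gp130 cytokine, rose with EP300 siRNA by 1.15 ± 0.12 and 1.20 ± 0.11 (edgeR adjusted p 1.5e-06 and 4.4e-07). TNF, OSM, IL33 and CXCL10 had group means of at most 0.0210 CPM.

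Of 13 receptors listed, 8 were tested. EP300 siRNA lowered 4 and raised 1 without H2O2 (31.4% and 30.1% of all genes), and lowered 5 with it (30.6%), with medians of -0.23 and -0.34, and H2O2 lowered 2 and raised 1 with control siRNA and lowered 3 with EP300 siRNA. IL6R, the IL-6 binding chain, fell from 10.2 ± 0.529 to 5.51 ± 0.182 CPM with EP300 siRNA (-0.88 ± 0.11, edgeR adjusted p = 4.3e-06) and by 0.51 with H2O2 present (0.00069). IL11RA fell with EP300 siRNA by 0.52 and 0.54 (edgeR adjusted p 0.00048 and 0.00088) and with H2O2 by 0.73 and 0.76 (8.3e-05 and 0.00016). LIFR fell with EP300 siRNA by 0.34 and 0.68 (edgeR adjusted p 0.026 and 0.00023). CXCR2 and ACKR1, receptors of the CXC chemokines, had group means of at most 0.0350 CPM.

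Of 14 tested genes of IL-1 processing, release and restraint, 8 fell and 2 rose with EP300 siRNA in each setting, where 31.4% and 30.6% of all genes fell, with medians of -0.22 and -0.21. H2O2 raised 4 and lowered 2 with control siRNA, and raised 5 and lowered 1 with EP300 siRNA. CAPN2, a calpain of the protease family that cleaves IL-1 alpha, rose with H2O2 by 0.76 ± 0.05 and 0.48 ± 0.05 (edgeR adjusted p 2.8e-08 and 5.8e-06) and fell with EP300 siRNA by 0.38 and 0.66 (1.1e-05 and 3.5e-08). SIGIRR, an inhibitory member of the IL-1 receptor family, fell with EP300 siRNA from 9.94 ± 1.71 to 3.40 ± 0.424 CPM (-1.54 ± 0.16, edgeR adjusted p = 8.6e-07). TOLLIP, an adaptor that restrains IL-1 receptor signals, fell by 0.64 without H2O2 (edgeR adjusted p = 7.1e-07) and by 0.16 with it (0.041). The IL-1 receptor antagonist IL1RN was at 0.175 and 0.414 CPM in siNC and siNC.H2O2, or 2 to 4 and 5 to 11 counts per library. It had 0 counts in all 6 EP300 siRNA libraries. At so few counts it did not pass the filter and was not tested.

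All 27 listed genes from the IL-1 receptor to NF-kB were tested. H2O2 raised 9 and lowered 2 with control siRNA, and raised 11 and lowered 1 with EP300 siRNA, where 17.8% and 17.4%, then 15.9% and 15.1%, of all genes were called. EP300 siRNA raised 11 and lowered 7 without H2O2 and raised 10 and lowered 6 with it, not far from the shares of all genes (30.1% and 31.4%, 28.4% and 30.6%). TNFAIP3, an NF-kB target that ends the signal, rose with H2O2 by 1.15 ± 0.07 and 1.35 ± 0.07 (edgeR adjusted p 1.2e-08 and 3.0e-09). RELB, an NF-kB subunit, fell with EP300 siRNA by 1.45 and 0.93 (edgeR adjusted p 1.2e-08 and 7.5e-07), and NFKBIB, an inhibitor of NF-kB, rose by 0.79 and 1.12 (2.3e-06 and 4.4e-08).

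Of 12 genes of gp130 signalling, all tested, EP300 siRNA raised 4 and lowered 5 without H2O2, and raised 5 and lowered 6 with it, beside 30.1% and 31.4%, then 28.4% and 30.6%, of all genes. SOCS1 and SOCS3, feedback inhibitors of cytokine signalling, both fell: SOCS1 by 2.94 and 3.21 (edgeR adjusted p 5.7e-08 and 9.9e-09) and SOCS3 by 0.71 and 1.02 (7.4e-07 and 1.7e-08). H2O2 raised 1 and lowered 2 of the 12 with control siRNA and lowered 3 with EP300 siRNA.

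Among 13 tested transcription factors known from cytokine promoters, H2O2 raised 8 and lowered 2 with control siRNA and raised 6 and lowered 1 with EP300 siRNA, beside 17.8% and 17.4%, then 15.9% and 15.1%, of all genes. FOSL1, a partner of JUN in AP-1, rose by 2.24 ± 0.09 and 2.19 ± 0.09 (edgeR adjusted p 2.2e-10 and 3.4e-10), and its siRNA differences of -0.05 and -0.10 did not pass (0.69 and 0.32). EP300 siRNA raised the immediate early gene EGR1 by 1.81 and 2.13 (edgeR adjusted p 1.8e-10 and 4.5e-11) and FOS, another AP-1 subunit, by 1.76 and 2.12 (1.2e-09 and 3.7e-10). In the whole list the siRNA raised 7 and lowered none without H2O2, and raised 6 and lowered 3 with it, beside 30.1% and 31.4%, then 28.4% and 30.6%, of all genes.

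Of 12 genes that control the decay of cytokine mRNA, EP300 siRNA raised 3 and lowered 4 in each setting, near the shares of all genes (30.1% and 31.4%, 28.4% and 30.6%). H2O2 raised 4 and 3 and lowered none, where 17.8% and 15.9% of all genes rose. ZFP36, which promotes decay through AU-rich elements, rose with EP300 siRNA by 0.77 and 0.73 (edgeR adjusted p 7.2e-06 and 1.0e-05). ARID5A, which stabilises IL6 mRNA, fell by 1.51 and 1.41 (edgeR adjusted p 2.4e-08 and 2.6e-08). MAPKAPK2, a kinase that restrains ZFP36, rose with H2O2 by 0.46 and 0.26 (edgeR adjusted p 8.3e-06 and 0.0015).

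Left out together, siNC 1 and siNC.H2O2 7 changed no count of members called in the H2O2 comparisons, which stayed at 7 higher and 0 lower. Of all genes, 19.3% were then called higher and 17.6% lower with control siRNA, and 20.4% and 19.5% with EP300 siRNA. The siRNA counts were then 4 higher and 3 lower without H2O2 (32.2% and 33.2% of all genes) and 7 higher and 1 lower with it (29.1% and 30.8%). IL1A is among the higher ones in both settings, and its calls support nothing because it passed the filter through the EP300 siRNA libraries. For the interaction, the share of all genes called higher was then 6.19% in place of 1.12%. In that setting 3 members were called higher in place of 1: IL11 (0.89, edgeR adjusted p = 0.0026), IL24 (1.01, 0.015) and CXCL1 (0.98, 0.024). The 2 libraries were picked by their place on the within-group axis of these same data, so the added calls are no further support.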

How the data were processed

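RNA-seq libraries of 12 AC16 samples, 3 in each of 4 groups set by the siRNA and oxidant in their titles, were analysed. The authors deposited 1 table of estimated counts and 1 table of FPKM for the same gene symbols, and 12.0% to 13.8% of the counts in a library were not whole. HISAT and Bowtie2 and the build GRCh38.p13 are named in the submitters' processing notes; versions, roles, counting program, annotation and strand setting were not given in the sources used here. Counts were rounded and scaled with TMM factors (0.969 to 1.05), and filterByExpr (minimum count 10) kept 13171 genes. Tests were edgeR 4.0.16 quasi-likelihood tests (R 4.3.3) over all 12 libraries with 1 mean per group, two-sided, with Benjamini-Hochberg adjustment over all genes and calls at an adjusted p under 0.05; each adjusted p is from this test unless limma is named. The biological coefficient of variation was 6.72%. Totals of 16081437 to 19033679 counts set the precision, so members under about 1 CPM rest on few counts. Replicate pairs differed by more than sampling noise (chi-square per degree of freedom 1.78 to 18.1). The steps were tested on simulated data.

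Alternatives were DESeq2 1.42.0 size factors and its Wald test, no filter, only the 2 groups compared, limma 3.58.1 on the deposited FPKM as log2(FPKM + 1) and log2(FPKM + 0.1), each library left out, and siNC 1 and siNC.H2O2 7 left out. Named genes are the members, EP300, MLF1, CREBBP, CXCL3, up to 3 genes per list with the smallest adjusted p and at least 5 CPM, and the 3 nearest profiles of each member of at least 1 CPM. Some genes that this rule names are not reported here. Receptors, cytokines and markers named for their level alone were chosen after their values were seen. Members and lists were chosen with earlier results of these data known. Promoter sequences are from RefSeq (GRCh38.p14) and gene positions from GENCODE v29.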

Additional observations from a re-analysis of the deposited data

Results flagged for a closer look

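IL11 is singled out because the effect of EP300 siRNA on it differed between cells with and without H2O2 by a test of that difference. The interaction was 0.78 ± 0.16 on the log2 scale (edgeR adjusted p = 0.015), the siRNA effects being -0.29 without H2O2 and 0.49 with it. All 3 libraries of siEP300.H2O2 were above those of siNC.H2O2, and all 3 of siEP300 were below those of siNC. Over 19 alternative settings the interaction ran from 0.70 to 0.92, with adjusted p-values from 0.00037 to 0.053. CXCL1 (0.85, edgeR adjusted p = 0.063) and IL24 (0.77, 0.12) had interactions of like size that did not pass, so IL11 is not shown to differ from them.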

How the results depend on the processing

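With H2O2 and EP300 siRNA, all 180 values of the 9 transcripts kept direction and call over 20 alternatives. With control siRNA 179 of 180 did; the exception was CXCL2, from -0.0998 to 0.34 with 1 library left out. For EP300 siRNA with H2O2 177 of 180 did, the others being lost CXCL2 calls. For EP300 siRNA without H2O2 160 of 180 did: 9 gained a call (IL11), 7 lost one (IL24 and CXCL2) and 4 reversed (LIF). For the interaction 150 of 171 did, 7 gained a call, 2 lost one and 12 reversed. Without H2O2, LIF was -0.025 on log2(FPKM + 1) with and without the filter, -0.030 on log2(FPKM + 0.1), and from -0.014 to 0.086 with 1 library left out, in no case past the threshold. In the interaction, IL1A was 0.052 on log2(FPKM + 1) with and without the filter, 0.011 on log2(FPKM + 0.1), and from -0.34 to 0.24 with 1 library left out. CXCL2 was from -0.14 to 0.31 with 1 library left out and -0.048 without siNC 1 and siNC.H2O2 7; neither passed.

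Members called lower by EP300 siRNA without H2O2 ranged from 1 to 3 with 1 library left out, against 2. Members called higher in the interaction ranged from 0 to 3 with 1 library left out, were 2 on each of the 3 FPKM scales and 3 without siNC 1 and siNC.H2O2 7, against 1. Genes called in the interaction ranged from 196 to 714 with 1 library left out and were 1977 without those 2 libraries, against 439. The cause was not tested. No paired analysis was possible because the groups share no replicate numbers. Depth limits IL1A, CXCL3 and, in siNC, CXCL8 and CXCL1, which rest on 3 to 32 counts per library. Counts were also low for IL6 (19 to 31) and CXCL2 (18 to 38) in siNC. The same holds for IL24 (17 to 24 after rounding) and CXCL1 (22 to 29) in siEP300.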
